A study of Mus musculus with 18 samples.

Results

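The DSS response of Mbd2-deficient colonic epithelial cells (CECs) was taken as the set of Mbd2KO samples, DSS_KO against Naive_KO. These are 8 samples on 9 arrays, of 16 samples on 18 arrays in the whole series, and they were chosen by their titles and genotype labels with no use of measured values. The DSS_KO group held the samples 5, 6, 7 and 8 and the Naive_KO group the samples 13, 14, 15 and 16, where sample 5 is the mean of the arrays 5 and 5R. The SD of the log2 difference between these arrays was 0.236 over detected probes, below that of any other pair of DSS_KO arrays (0.287 to 0.419).

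All of these mice carried a germline deletion of Mbd2 on a C57BL/6 background, so every cell type lacked the gene and not only the epithelium. The mice of the DSS_KO group drank 2% dextran sulphate sodium (DSS), while those of the Naive_KO group were untreated. The study's methods describe adult animals matched for age and sex, and CECs sorted by flow cytometry as EpCAM+ cells without surface markers of leukocytes (CD45), T cells (CD3) and macrophages. Each sample may pool several mice, so the p-values below measure the spread between these samples. The series also holds wild-type (WT) CECs, DSS_WT and Naive_WT, with 4 samples in each group, and the study asked how Mbd2 shapes the epithelial response to colonic inflammation.

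Mbd2 is a reader of DNA methylation: it binds methylated CpG sites and recruits a complex that represses transcription. The colonic epithelium is a single layer in which absorptive colonocytes take up water, ions and butyrate, goblet cells secrete the mucus, and rare enteroendocrine and tuft cells sense the lumen. DSS damages this layer and lets bacteria reach the tissue below, after which epithelial cells are known to secrete antimicrobial lectins and chemokines and to respond to cytokines such as IL-22 and interferon-gamma.

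Messenger RNA was read with Illumina MouseWG-6 BeadChips, on which each transcript is captured by 50-base probes, and values below are normalized log2 signals, on which a difference of 1 is a 2-fold change. Between 18851 and 20618 probes were detected per array in the series, and 21938 probes of 15459 genes detected on at least 4 arrays were tested with limma in 1 model of all 16 samples. Alternatives named below left out this filter or the background correction, or fitted the Mbd2KO samples only. A probe was called at an adjusted p under 0.01 and an absolute log2 fold change of 1 or more. The mean signal of the negative controls was 103.4 to 133.8 intensity units on DSS_KO arrays and 100.5 to 106.3 on Naive_KO arrays, and its part in the results was not tested. The only Mbd2 probe was detected on 0 of 18 arrays (lowest detection p-value 0.151), so it could not check the genotype labels, which were taken as given.

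DSS changed 377 probes in Mbd2KO CECs, 235 higher (1.07% of all probes tested) and 142 lower (0.647%). They belong to 212 genes that rose and 116 that fell. The median log2 fold change of the called probes was 1.34 for those that rose and -1.35 for those that fell. The 4 DSS_KO and 4 Naive_KO values did not overlap for 364 of the 377, against 15.9% of all probes tested. Scaling each array by its median in place of quantile normalization moved the median change of all probes from -0.017 to 0.233 and called 630 probes higher and 91 lower, which raised the share of higher calls from 62.3% to 87.4%. The number of calls also depended on single samples, running from 183 without Naive_KO 14 to 462 without DSS_KO 7; it was 194 without DSS_KO 5, 186 without DSS_KO 8, 252 without DSS_KO 6 and 237 without Naive_KO 16.

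Secreted antimicrobial proteins were among the genes with the largest rises. Reg3b, a lectin that kills gut bacteria, was named by its dimmer probe, which read 9.46, 6.92, 7.61 and 6.75 in Naive_KO 13 to 16 and 12.11, 11.79, 10.63 and 12.06 in DSS_KO 5 to 8. All 4 treated samples lay above the naive ones, and the log2 fold change was 3.96 ± 0.62 (SE, n = 4 per group, adjusted p 0.00114). The brighter Reg3b probe was already between 12.35 and 14.45 in the naive samples, close to the top of the scale, and changed by 1.27 (adjusted p 0.108). Its relative Reg3g went from 11.69, 9.65, 9.40 and 9.27 to 13.70, 13.11, 12.55 and 13.51, a log2 fold change of 3.22 ± 0.55. Naive_KO 13 was the highest naive sample for both lectins. The Reg3 genes are close paralogs, so a probe of one may read another.

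S100a8 and S100a9 encode the subunits of calprotectin, a metal-binding protein that neutrophils store and inflamed epithelium also makes. S100a8 read 5.18, 4.43, 4.52 and 4.38 in the naive samples and 10.58, 8.00, 6.76 and 8.46 with DSS, a log2 fold change of 3.82 ± 0.70 (SE, n = 4 per group, adjusted p 0.00323). Only 1 of the 4 naive arrays, that of Naive_KO 13, detected it, so the size of this change rests on values near background. S100a9 was not well above background on any Naive_KO array and read 9.70, 7.04, 5.77 and 7.55 with DSS, at least 5.79-fold higher. Among treated samples both subunits were highest in DSS_KO 5 and lowest in DSS_KO 7, and all treated values lay above the naive ones. The bound compares the mean of the treated samples with the dimmest signal that counted as detected on each naive array, or with the probe's own signal there if that was higher, and the bounds below were made in the same way.

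Of the 21 tested genes in the list of Reg lectins and antimicrobials, 9 rose and 1 fell, and the median log2 fold change was 0.927. Over all 15459 genes, each read by its brightest probe, 1.27% rose and 0.666% fell and the median was -0.011. These shares stand beside the list counts of the main setting given below. The 9 were Reg3g, S100a8, S100a9, Lcn2, Slpi, Reg1, Reg3a, Lyz1 and Lyz2, and Reg3b was not among them because its brighter probe was not called. The dimmer probes of Lyz1 were not called. Lcn2, which binds bacterial iron carriers, read 6.88, 5.05, 4.94 and 5.38 in naive samples and 9.29, 7.40, 7.19 and 8.03 with DSS, a log2 fold change of 2.41 ± 0.43 (adjusted p 0.00285). Slpi, a protease inhibitor with antibacterial activity, changed by 2.08 ± 0.38. The gene that fell was Reg4, a lectin of enteroendocrine and goblet cells, at -1.89 ± 0.39 (adjusted p 0.00736), called in 9 of 19 alternative settings and, of the fits that left out 1 sample, in those without DSS_KO 7 or Naive_KO 16. The number of genes that rose was 3 without the filter, 5 without background correction, 3 without DSS_KO 8, 4 without Naive_KO 14 or 16, 5 without DSS_KO 5, and 6 without DSS_KO 6 or Naive_KO 15.

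**Figure D1:**
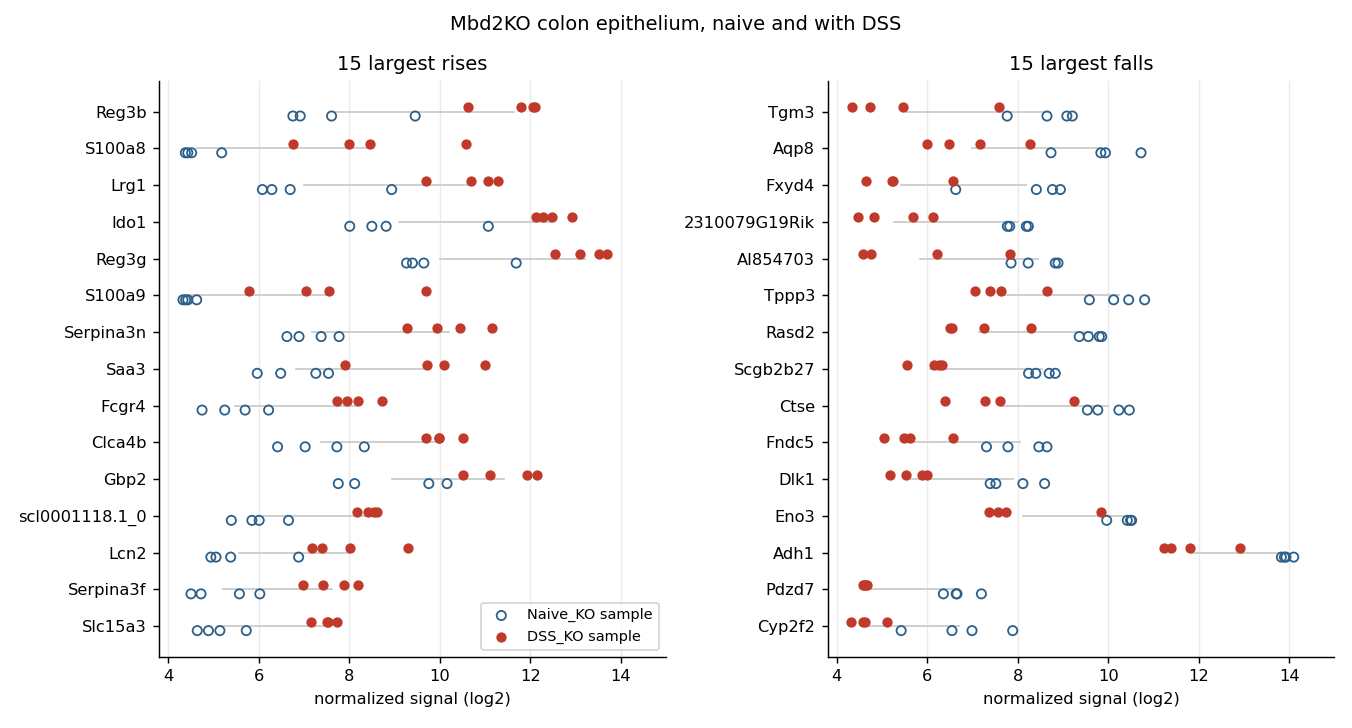
Normalized log2 signal (x axis) of the 15 genes with the largest rise (left) and the 15 with the largest fall (right) among calls in which the 2 groups do not overlap. Each open circle is a Naive_KO sample and each filled circle a DSS_KO sample (4 per group), and the grey line joins the group means; the highest treated sample of Fxyd4, 6.57, sat close to the lowest naive sample, 6.63.

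Acute-phase proteins rose alongside, with 10 of 24 tested genes called higher and none lower (median 0.895). Lrg1, a secreted leucine-rich glycoprotein, read 8.94, 6.29, 6.70 and 6.08 in naive samples and 11.30, 10.68, 9.69 and 11.06 with DSS, a log2 fold change of 3.68 ± 0.52 (SE, n = 4 per group, adjusted p 0.000646). The protease inhibitor Serpina3n went from 7.78, 6.89, 7.38 and 6.62 to 11.16, 9.94, 9.28 and 10.44, and changed by 3.04 ± 0.36 (adjusted p 0.000289). Saa3, a serum amyloid made outside the liver, changed by 2.87 ± 0.53. In each of these genes DSS_KO 7 was the lowest treated sample and still lay above every naive one. Timp1, an inhibitor of matrix proteases, changed by 2.15 ± 0.26, and the complement component C3 by 1.62, haptoglobin (Hp) by 1.34 and ceruloplasmin (Cp) by 1.18. Hp was called in 8 of 19 alternative settings and Cp in 9. Their calls were lost without DSS_KO 5, 6 or 8 or Naive_KO 14, 15 or 16, and their other probes were not called. Ptx3, a soluble pattern receptor, was not well above background on any naive array and was at least 1.97-fold higher with DSS. Saa1 changed the other way, by -1.04, and passed only the adjusted p under 0.05. Without the filter the list had 4 genes that rose and with Mbd2KO samples only 6, without DSS_KO 8 or Naive_KO 14 it had 4, without DSS_KO 5 or Naive_KO 15 it had 5, and without DSS_KO 6 or Naive_KO 16 it had 6.

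The receptors and transducers of the IL-6 and IL-22 family, which many of these secreted proteins are known to respond to, had 1 called gene of 20 tested (median 0.089), with 3 higher and 2 lower at the adjusted p under 0.05, which 5.19% of all genes passed upwards and 4.72% downwards. With median scaling 3 were called and 8 were higher at the adjusted p under 0.05 (median 0.388), where 3.19% of all genes were called higher and 21.1% passed upwards. The called gene was Osmr, a subunit of the oncostatin M receptor, at 1.00 ± 0.17 (adjusted p 0.0018), whose call was lost without DSS_KO 5 or 8 or Naive_KO 14, 15 or 16. Socs3, the feedback inhibitor of STAT3, changed by 0.91 ± 0.15 (adjusted p 0.00184), below the limit on the fold change.

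In the chemokine list, 10 of 21 tested genes rose and 1 fell, with a median log2 fold change of 1.009. Cxcl2, a neutrophil attractant, read 7.71, 7.34, 6.85 and 7.09 in naive samples and 9.39, 9.36, 8.44 and 9.55 with DSS, a log2 fold change of 1.94 ± 0.22 (SE, n = 4 per group, adjusted p 0.000273). Its groups stood well apart. Ccl7, which attracts monocytes, changed by 1.66 ± 0.24, Ccl2 by 1.75, Ccl4 by 1.81 ± 0.40, Ccl3 by 1.39 ± 0.28 and Cxcl1 by 1.01 ± 0.17. Of these, Ccl4 was called in 7 of 19 alternative settings and Ccl3 in 9. With 1 sample left out, Ccl4 kept its call only without Naive_KO 13, and its other probe was not called. Cxcl13, which attracts B cells, changed by 2.07. Ccl6 fell by 1.01 (adjusted p 0.00384) and was called in 8 of 19 alternative settings, with 1 sample left out in those without DSS_KO 7 or Naive_KO 15. The number of chemokines that rose was 3 without background correction, 5 without the filter or with Mbd2KO samples only, 3 without DSS_KO 8, 4 without DSS_KO 5, DSS_KO 6 or Naive_KO 14, 5 without Naive_KO 15 and 6 without Naive_KO 16.

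Of 28 tested cytokines, receptors and IL-1 family members, 3 rose, which were Il1b, Il6 and Il1r2 (median 0.134). Il1b went from 8.96, 8.02, 8.32 and 7.34 to 10.55, 10.26, 9.83 and 10.50, with a log2 fold change of 2.12 ± 0.35 (adjusted p 0.0016). Il1r2, a decoy receptor for IL-1, changed by 1.77 ± 0.27 and Il6 by 1.55 ± 0.22. These 3 kept their calls when any 1 of the 8 samples was left out. With median scaling 7 genes of the list rose (median 0.39), and without background correction 1 did. Il33, an alarmin, and Tnf changed by 1.06 and 0.92 and passed only the adjusted p under 0.05.

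In the list of genes induced by interferon-gamma, which leaves out the MHC, 25 of 26 tested genes had a positive log2 fold change, the median was 0.925, 5 rose and 19 passed the adjusted p under 0.05. The 5 were Ido1, Gbp2, Acod1, Cd274 and Cxcl10. Ido1, which breaks down tryptophan, read 11.07, 8.01, 8.81 and 8.50 in naive samples and 12.49, 12.13, 12.29 and 12.93 with DSS, a log2 fold change of 3.36 ± 0.60 (SE, n = 4 per group, adjusted p 0.0029). Gbp2, a GTPase that attacks the vacuoles of intracellular pathogens, went from 10.16, 8.12, 9.76 and 7.76 to 11.11, 10.51, 12.14 and 11.92, a log2 fold change of 2.47 ± 0.52. The naive samples of both genes were widely spread, and Naive_KO 13 came closest to the treated ones. Cd274, the checkpoint ligand PD-L1, changed by 1.23 ± 0.23 and the T cell chemokine Cxcl10 by 1.04 ± 0.22. Cxcl9, also a T cell chemokine, changed by 2.44 ± 0.58 (adjusted p 0.0142) and was not called.

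The interferon-gamma calls depended on the scaling and on single samples. With median scaling 18 genes of the list rose, with 18 separate arrays 10, without background correction 2 and without the filter 1. Without Naive_KO 13 the list had 13 genes that rose, whereas without DSS_KO 5, DSS_KO 8, Naive_KO 14 or Naive_KO 16 it had 1 and without DSS_KO 7 it had 3. Of 23 tested genes of the type I interferon response, 2 rose, Lgals9 and Ifit2 (median 0.321; with median scaling 6 rose, 14 were higher at the adjusted p under 0.05 and the median was 0.619), with 3 called without Naive_KO 13 and 1 without DSS_KO 5, 7 or 8 or Naive_KO 14, 15 or 16. Lgals9, a galectin, went from 10.09, 9.50, 9.05 and 9.41 to 11.08, 10.86, 10.81 and 11.21, a log2 fold change of 1.48 ± 0.22 (adjusted p 0.000697).

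None of 13 tested MHC class II genes was called, although 12 of them had a positive log2 fold change and the median was 0.876. At an unadjusted p under 0.05, 10 were higher and 1 lower by limma, while 12.9% of all genes were higher and 12.5% lower at that limit. These genes present peptides to CD4+ T cells, and epithelium can switch them on under interferon-gamma. At the looser adjusted p under 0.05, whatever the size of the change, Ctss, the protease that trims the invariant chain, was higher (0.68) and Rfxank, a subunit of their transcription factor, lower (-0.565). H2-Ab1, a class II chain, read 13.86, 12.00, 13.66 and 11.71 in naive samples and 13.77, 13.47, 13.87 and 13.78 with DSS. The naive samples 13 and 15 were as high as the treated ones and 14 and 16 were lower, and the log2 fold change of 0.92 ± 0.41 had an adjusted p of 0.175. In Cd74, the invariant chain (14.40, 13.07, 13.97 and 12.82 against 14.19, 14.12, 14.47 and 14.39), and Ciita, the activator of class II transcription (8.77, 6.69, 7.99 and 6.17 against 9.22, 8.08, 9.29 and 8.55), Naive_KO 13 lay within the treated range and the other naive samples below it, Naive_KO 15 by the least. Without Naive_KO 13, 3 class II genes were called higher and 10 were higher at the adjusted p under 0.05, while without Naive_KO 16 the list median was 0.549 and none was higher at that limit. With median scaling 5 were called higher and 11 passed the adjusted p under 0.05, and the distance of the list median from all genes was 1.007 where it had been 0.887. None of 24 tested genes of MHC class I and peptide loading was called by limma (median 0.311; 7 higher and 1 lower at an unadjusted p under 0.05), and Tapbpl passed the adjusted p under 0.05. With median scaling 1 class I gene was called and 8 were higher at the adjusted p under 0.05, which 21.1% of all genes passed upwards. The class I median was then 0.635, which is 0.387 relative to all genes where it had been 0.322. The class I median was 0.102 without Naive_KO 16 and 0.159 without Naive_KO 14, and without Naive_KO 13 the genes higher at the adjusted p under 0.05 numbered 6.

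**Figure D2:**
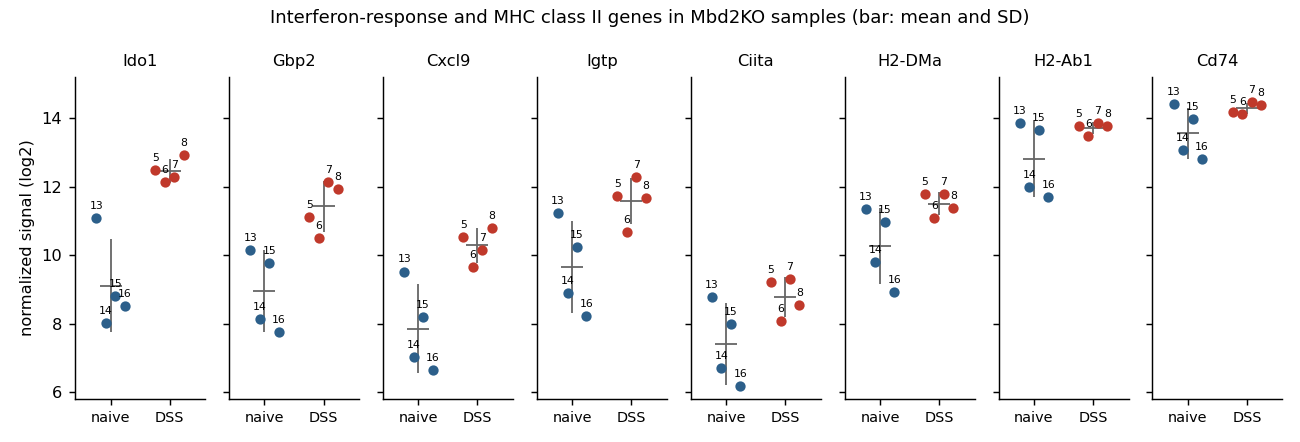
Normalized log2 signal (y axis) of interferon-response and MHC class II genes in Mbd2KO samples, naive (left in each panel) and with DSS (right); each point is a sample with its number, and bars give the mean and SD (n = 4 per group). In H2-Ab1 and Cd74 the naive samples 13 and 15 sat within or near the range of the treated samples, while 14 and 16 sat below it.

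The promoters of the genes that rose were read for letters that interferon-activated factors are known to recognise, because these genes moved together. Windows from 250 bases before to 50 bases after the start of each gene were taken from RefSeq (GRCm38.p6) and matched 133 of the 212 genes that rose, 84 of the 116 that fell and 9572 of all 15459 genes tested. The letters GAAANNGAA, the core of the interferon-stimulated response element (ISRE), occurred on either strand in 24 of the 133 genes that rose (18%), in 5 of the 84 that fell (5.95%) and in 828 of all genes tested (8.65%). The letters TTCNNNGAA, the gamma-activated site (GAS), occurred in 18 (13.5%), 5 (5.95%) and 807 (8.43%). The letters CAAAGTNCA, a core bound by the colonocyte factor HNF4, occurred in 5 (3.76%), 3 (3.57%) and 130 (1.36%). Both the ISRE core and GAS were found in 5 genes that rose and in 107 genes tested. A match is a description of the letters and not a binding site. The following stretches upstream of 6 genes that rose are given 5′ to 3′ on the strand of the gene, with the match in capitals (ISRE core, or its reverse complement, in the first 4 and GAS in the last 2). Gbp2 is at chr3:142620565-142620653 (+), Cxcl10 at chr5:92349054-92349139 (-), Cd274 at chr19:29367322-29367410 (+), Lgals9 at chr11:78984930-78985018 (-), Serpina3g at chr12:104236074-104236146 (+) and Reg3b at chr6:78370716-78370804 (+).
Gbp2: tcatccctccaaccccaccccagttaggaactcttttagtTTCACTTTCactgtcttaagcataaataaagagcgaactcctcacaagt
Cxcl10: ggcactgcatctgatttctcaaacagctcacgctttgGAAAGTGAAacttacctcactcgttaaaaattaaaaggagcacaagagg
Cd274: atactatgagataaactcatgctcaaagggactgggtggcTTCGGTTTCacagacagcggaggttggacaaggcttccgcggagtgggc
Lgals9: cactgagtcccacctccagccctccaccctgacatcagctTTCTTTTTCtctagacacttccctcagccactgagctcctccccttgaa
Serpina3g: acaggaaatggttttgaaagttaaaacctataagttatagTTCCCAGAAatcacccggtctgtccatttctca
Reg3b: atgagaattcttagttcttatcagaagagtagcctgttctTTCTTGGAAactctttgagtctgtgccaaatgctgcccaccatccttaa

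The match began 58 bases before the gene start in Gbp2, 213 in Cxcl10, 76 in Cd274, 54 in Lgals9, 33 in Serpina3g and 129 in Reg3b. Serpina3g, a protease inhibitor of the same cluster as Serpina3n, went from 7.25, 6.18, 6.75 and 5.82 in naive samples to 9.04, 8.04, 8.10 and 8.79 with DSS, and changed by 1.99 ± 0.32 (adjusted p 0.00137). The Serpina3 genes, like the Gbp genes, are near-identical in parts, so their probes cannot be assigned with certainty.

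Genes of colonocyte ion and water transport were among those with the largest falls. Of 46 tested genes of colonocyte ion and water transport, 6 fell and 1 rose, with a median log2 fold change of -0.28. Over all genes, 0.666% fell and 1.27% rose. Aqp8, the water channel of surface colonocytes, read 8.73, 9.94, 9.84 and 10.72 in naive samples and 6.48, 7.16, 8.28 and 6.00 with DSS, a log2 fold change of -2.83 ± 0.46 (SE, n = 4 per group, adjusted p 0.00151). Fxyd4, a regulator of the sodium pump, went from 8.41, 8.94, 6.63 and 8.77 to 5.25, 4.66, 6.57 and 5.21, a log2 fold change of -2.77 ± 0.51 (adjusted p 0.0034). DSS_KO 7 was the highest treated sample of both. Trpm6, the channel for magnesium uptake, changed by -2.004 ± 0.33, the calcium-activated chloride channel Ano1 by -1.31 ± 0.16 and the carbonic anhydrase Car2 by -1.11 ± 0.23. The calls of Ano1 and Car2 were lost with median scaling, and Car2 was called in 10 of 19 alternative settings. Another Car2 probe was not called under any setting (adjusted p by limma 0.494 to 0.988 under the alternatives), so the probes disagree. In these bulk samples, fewer cells of a type and less RNA per cell cannot be told apart.

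The member that rose was Clca4b, of a family of secreted regulators of chloride channels, whose brighter probe went from 8.33, 7.03, 7.73 and 6.42 to 9.98, 9.98, 10.52 and 9.69 (log2 fold change 2.67 ± 0.37). Another probe of the gene changed by -0.18 (adjusted p 0.816), so the probes disagree. Slc26a3, the chloride and bicarbonate exchanger, changed by -0.98 ± 0.36 (adjusted p 0.0968) and was not called. The number of transport genes that fell was 3 without the filter or with Mbd2KO samples only, 10 without DSS_KO 7, 3 without DSS_KO 5, 6 or 8 or Naive_KO 14, and 4 without Naive_KO 15 or 16. With median scaling the list median was 0.017 against 0.248 for all genes, so that its distance from all genes was -0.231, where it had been -0.269.

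Tgm3, which crosslinks proteins of surface epithelium, read 8.65, 9.09, 7.77 and 9.21 in naive samples and 4.33, 4.74, 7.59 and 5.46 with DSS, a log2 fold change of -3.14 ± 0.56 (SE, n = 4 per group, adjusted p 0.00284). Only 2 of the 5 DSS_KO arrays detected it, so the size of this change rests on values near background. The treated sample 7 almost reached the lowest naive sample, and the call was lost without DSS_KO 5, 6 or 8 or Naive_KO 14 or 16. Tgm2, a related enzyme, changed by 1.33 ± 0.23. Adh1, an alcohol dehydrogenase that also oxidises retinol, went from 13.89, 14.10, 13.93 and 13.83 to 11.23, 11.39, 12.90 and 11.80, a log2 fold change of -2.11 ± 0.29 (adjusted p 0.000571). It was among the brightest genes that fell, and both of its probes gave the same size of change. The cytochrome P450 enzymes Cyp2c67 and Cyp2f2 changed by -2.43 ± 0.49 and -2.06 ± 0.41, the 2 called among 23 tested, beside 0.666% of all genes that fell (median -0.218, or -0.018 with median scaling, which is -0.266 relative to all genes). Neither was called without background correction, without the filter, with Mbd2KO samples only or without DSS_KO 5, 6 or 8 or Naive_KO 14 or 16, and 1 was without Naive_KO 13. Acsm3, a mitochondrial enzyme that activates butyrate and medium-chain fatty acids, changed by -1.33 ± 0.20 (adjusted p 0.000898). It was the single call among 39 genes of butyrate and fatty acid oxidation (median -0.062), and nothing is read from it about the list. Another Acsm3 probe was also called, and the remaining one was not (adjusted p by limma 0.405 to 0.877 under the alternatives). With median scaling the Acsm3 calls were lost and the list median was 0.308, which is 0.06 relative to all genes where it had been -0.051.

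Other large falls came from genes of varied function. Rasd2, a small GTPase, went from 9.56, 9.86, 9.36 and 9.80 in naive samples to 7.26, 6.51, 8.28 and 6.55 with DSS (log2 fold change -2.49 ± 0.31, adjusted p 0.000315). Tppp3, a tubulin-binding protein, went from 10.12, 10.45, 9.58 and 10.80 to 7.05, 7.63, 8.64 and 7.39 (-2.56 ± 0.33). The treated samples of both were all below the naive ones. The secretoglobin Scgb2b27 changed by -2.47 ± 0.29, the aspartic protease cathepsin E (Ctse) by -2.37 ± 0.41, the membrane protein Fndc5 by -2.37 ± 0.34, the Notch-related protein Dlk1 by -2.26 ± 0.31 and the enolase Eno3 by -2.23 ± 0.44. Pdzd7, a scaffold protein, was not well above background on any DSS_KO array and was at least 3.38-fold lower. The genes 2310079G19Rik and AI854703 changed by -2.73 ± 0.50 and -2.60 ± 0.55. Of the 30 genes with the largest rises and falls, 15 were called under all 19 alternative settings tried, and the highest adjusted p that any of the 30 reached was 0.0354, for the P450 gene Cyp2f2. Among the largest rises not yet given were Fcgr4, an Fc receptor of myeloid cells (2.67 ± 0.32), the lysosomal transporter Slc15a3 (2.38 ± 0.27), Serpina3f (2.41 ± 0.35) and a transcript that the file names only as scl0001118.1_0 (2.46 ± 0.35). Some of these changes, too, rest in part on values near background, since the naive signal was detected on 1 of 4 arrays for Hp, on 2 for Cp, Ccl3, Slc15a3 and Serpina3f and on 3 for Cxcl13, Timp1, Fcgr4 and Lcn2. The treated signal was detected on 1 of 5 arrays for Cyp2f2, on 2 for 2310079G19Rik and AI854703 and on 4 for Fxyd4.

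Of 28 tested goblet cell genes, 3 were called lower and none higher, beside 0.666% of all genes called lower, with a median of -0.399. No goblet gene was called without the filter or with Mbd2KO samples only, and 1 was without background correction or with an offset of 50. With median scaling the list median was -0.043, a distance from all genes of -0.291 where it had been -0.388. Best2, a bicarbonate channel of colonic goblet cells, read 9.33, 9.47, 8.48 and 7.66 in naive samples and 5.42, 4.57, 8.08 and 5.68 with DSS, a log2 fold change of -2.79 ± 0.61 (SE, n = 4 per group, adjusted p 0.00913). The value of the treated sample 7 lay within the naive range, and 4 of the 5 DSS_KO arrays detected the gene. Nxpe4 changed by -2.61 ± 0.56, and the membrane mucin Muc3 went from 14.01, 14.04, 14.40 and 14.19 to 12.58, 12.68, 13.72 and 12.78, a change of -1.22 ± 0.24. Muc2, the gel-forming mucin, was between 14.65 and 14.78 in naive samples and between 14.46 and 14.74 with DSS, close to the top of the scale, and changed by -0.14 ± 0.10 (adjusted p 0.41). The count of goblet genes that fell was 0 without DSS_KO 5, 6 or 8 or Naive_KO 14, 1 without Naive_KO 13 or 15, 2 without Naive_KO 16 and 4 without DSS_KO 7.

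Of 33 tested enzymes that build mucin sugars, 2 were called lower and none higher, and 25 did not pass the adjusted p under 0.05 either (median -0.284, and 0.101 with median scaling, which is -0.147 relative to all genes where it had been -0.273). Over all genes, 0.666% were called lower. St3gal6, a sialyltransferase, went from 11.70, 12.13, 12.14 and 11.55 to 9.95, 10.00, 10.79 and 10.19, a log2 fold change of -1.65 ± 0.19 (adjusted p 0.000289). B3gnt7, which extends sulphated sugar chains, changed by -1.88 ± 0.39, with DSS_KO 7 inside the naive range. The number of these enzymes that fell was 1 without DSS_KO 5, 6 or 8 or Naive_KO 13 or 16 and 4 without DSS_KO 7, and B3gnt7 lost its call without each of these 5 samples and without Naive_KO 14. Of 25 enteroendocrine genes, 1 fell, beside 0.666% of all genes, so nothing is read from it about the list. It was Scgn, a calcium-binding protein (-1.02 ± 0.16), while the hormone Insl5 changed by -2.34 ± 0.61 (adjusted p 0.0231). Without DSS_KO 7 there were 4 that fell, and without DSS_KO 6 or Naive_KO 13 there were 0. The median of that list was -0.117, and 0.183 with median scaling, which is -0.065 relative to all genes.

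**Figure D3:**
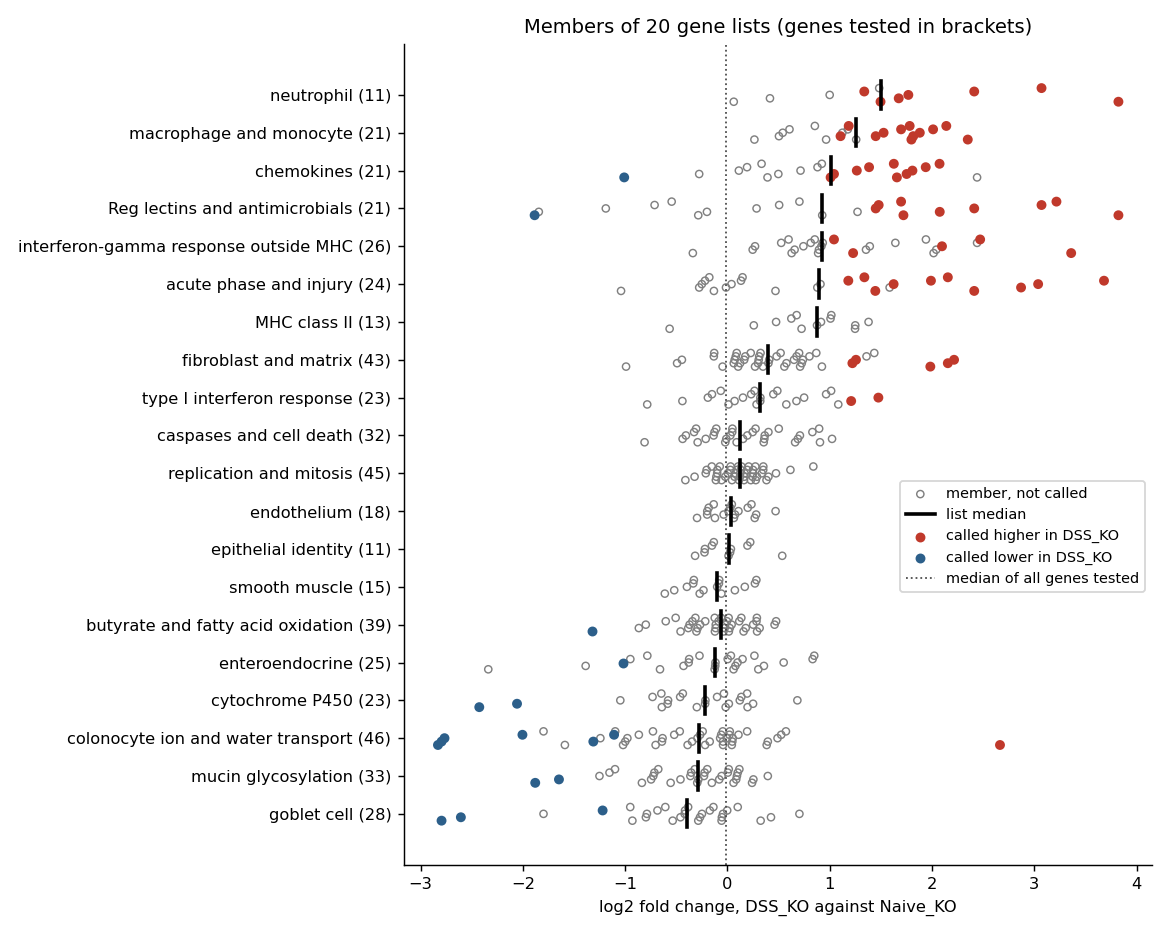
Log2 fold change, DSS_KO against Naive_KO (x axis), of each tested member of 20 gene lists (rows, with the number of genes tested). Filled points were called and black ticks are list medians; the medians ran from -0.399 in the goblet cell list to 1.497 in the neutrophil list, against -0.011 for all genes (dotted line).

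Several epithelial lists had few or no calls, and some of them held higher genes at looser limits. None of 36 genes of tight junctions and adhesion (median 0.051), 45 genes of replication and mitosis (0.125), 49 genes of the respiratory chain (0.12), 32 genes of caspases and cell death (0.121) and 27 proteasome subunits (0.231) was called by limma. Of all genes, 1.27% rose and 0.666% fell, so 0 calls in lists of this size say little about them. At an adjusted p under 0.05 these lists held 1 higher and 1 lower, 2 higher, 1 lower, 7 higher and 4 higher, beside 5.19% of all genes higher and 4.72% lower. At an unadjusted p under 0.05 by limma, 4, 5, 7, 11 and 11 genes of these lists were higher, beside 12.9% of all genes. At that limit 4, 0, 1, 2 and 0 were lower, beside 12.5% of all genes. All 27 proteasome subunits had a positive log2 fold change. The 7 genes of cell death became 4 without DSS_KO 5, DSS_KO 8 or Naive_KO 16, and the 4 proteasome subunits became 1 without DSS_KO 8 and 2 without DSS_KO 6 or Naive_KO 14, 15 or 16. With median scaling, under which the median of all genes was 0.248, 2 genes of replication, 1 of the respiratory chain and 6 of cell death were called higher, and 24 proteasome, 30 respiratory chain and 10 tight junction genes were higher at the adjusted p under 0.05, which 21.1% of all genes passed upwards under that scaling. The 7 genes of cell death included the inflammasome adaptor Pycard (0.90), the necroptosis kinase Ripk3 (0.91), the pore-forming effector Mlkl (0.71) and the death receptor Fas (0.83). Among 28 genes of epithelial repair and EGFR ligands, 3 rose. Ly6a (Sca-1), a surface protein of regenerating epithelium, went from 13.57, 12.75, 12.67 and 12.07 to 13.86, 13.63, 14.19 and 14.15 (1.19 ± 0.25, adjusted p 0.00699), and the matrix protease Mmp7 changed by 1.66 ± 0.29. Mmp10, also a matrix protease, was not well above background on any naive array or in DSS_KO 7 and was at least 3.21-fold higher with DSS. With median scaling 6 repair genes rose and 13 were higher at the adjusted p under 0.05 (median 0.416), and with Mbd2KO samples only none was called. No repair gene was called without DSS_KO 8 or Naive_KO 14, 1 was called without DSS_KO 5 or Naive_KO 15 or 16, and 2 without DSS_KO 6 or 7.

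In 4 further epithelial lists 1 or 2 genes were called, beside the 1.27% of all genes that rose and the 0.666% that fell, and they are given as single genes with nothing read from them about the lists. Slc51a, which exports bile acids across the basolateral membrane, read 8.95, 8.82, 9.55 and 9.61 in naive samples and 11.00, 10.47, 10.53 and 10.25 with DSS, a log2 fold change of 1.33 ± 0.24 (SE, n = 4 per group, adjusted p 0.00282), and was the single call among 30 solute and nutrient carriers (median -0.074). Akr1c18, which inactivates progesterone, was not well above background on any naive array and was at least 2.56-fold higher with DSS, 1 of 2 calls among 47 genes of xenobiotic and steroid conjugation (Adh1 being the other). Sfrp1, a secreted Wnt antagonist, changed by 1.28 ± 0.26, the single call among 27 stem cell and Wnt genes (median 0.038). Alox5ap, which leukocytes and tuft cells use to make leukotrienes, changed by 1.20 ± 0.27, the single call among 11 tuft cell genes (median 0.116). The calls of Slc51a (without DSS_KO 5 or Naive_KO 14), Akr1c18 (without any sample but DSS_KO 7), Sfrp1 (without DSS_KO 5, 6 or 8 or Naive_KO 14, 15 or 16) and Alox5ap (without any 1 sample) were lost when those samples were left out.

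Epithelial markers had overlapping levels in both groups, while markers of myeloid cells moved with DSS. The summed signal of 11 epithelial markers was 16.24 to 16.42 in naive samples and 16.19 to 16.35 with DSS, and none was called by limma (1 lower at an unadjusted p under 0.05). Of 21 tested markers of macrophages and monocytes, 12 rose and 21 had a positive log2 fold change (median 1.259). Their summed signal was 11.71 to 12.90 in naive samples and 13.53 to 13.72 with DSS. Fcer1g, the signalling chain of Fc receptors, read 7.53, 6.72, 6.53 and 5.93 in naive samples and 9.03, 8.92, 8.99 and 9.16 with DSS, a log2 fold change of 2.35 ± 0.34 (SE, n = 4 per group, adjusted p 0.000646). Tyrobp, another signalling adaptor of myeloid receptors, changed by 2.14 ± 0.26. Of the defining markers, Csf1r, Cd68 and Adgre1 changed by 0.85, 0.96 and 1.12 with adjusted p of 0.00964, 0.00341 and 0.0162, and Ptprc, which encodes CD45, had no tested probe. The number of these markers that rose was 6 without background correction, 7 without the filter and 8 without DSS_KO 5, 6 or 8 or Naive_KO 14 or 16.

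Of 11 tested neutrophil genes 7 rose (median 1.497), a list that holds S100a8, S100a9, Lcn2 and Il1r2, which epithelium can also make. Its summed signal was 8.22 to 8.84 in naive samples and 9.54 to 11.97 with DSS, the highest being DSS_KO 5. Of the defining markers, Csf3r changed by 0.42 (adjusted p 0.2), while Ly6g, Mpo and Cxcr2 had no tested probe. The count of neutrophil genes that rose was 1 without background correction or without the filter, 2 with Mbd2KO samples only, 1 without DSS_KO 8 or Naive_KO 14, 2 without Naive_KO 16, 3 without DSS_KO 5 or Naive_KO 15 and 4 without DSS_KO 6. Of 11 dendritic cell and costimulation genes 4 rose, Cd40, Cd86, Cd274 and Siglech (0 without background correction, 1 without DSS_KO 5 or Naive_KO 14 and 2 without DSS_KO 8 or Naive_KO 15 or 16). Of 14 T and NK cell genes 2 rose, Prf1 and Ccl5 (1 without DSS_KO 5, 6 or 8 or Naive_KO 14, 15 or 16), and their summed signal was 12.40 to 12.58 in naive samples and 12.58 to 12.87 with DSS. None of 11 B and plasma cell, 18 endothelial and 15 smooth muscle genes was called by limma, and 0, 1 and 1 of them had an unadjusted p under 0.05. The 2 tested erythrocyte genes changed by 0.969 and 1.01, each with an unadjusted p under 0.05, and did not pass the adjusted p under 0.05. The 3 tested mast cell proteases changed by -0.817 to -0.147, with 1 lower at the adjusted p under 0.05. The part that carried-over leukocytes have in the rise of chemokines, calprotectin, Il1b and interferon-response genes was not tested.

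Of 43 fibroblast and matrix genes, 5 rose (Mgp, Mmp2, Mmp3, Timp1 and Col18a1; median 0.401), and the summed signal was 13.64 to 13.99 in naive samples and 14.09 to 14.63 with DSS. The collagen Col1a1, a defining marker, read 7.01, 5.85, 5.50 and 6.89 in naive samples and 5.83, 6.95, 6.63 and 7.50 with DSS, which overlap. With median scaling 10 rose and 19 were higher at the adjusted p under 0.05 (median 0.678), and without background correction 2 rose. The count that rose was 2 without DSS_KO 6 or 8 or Naive_KO 14, 3 without DSS_KO 5 or Naive_KO 16 and 8 without DSS_KO 7.

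**Figure D4:**
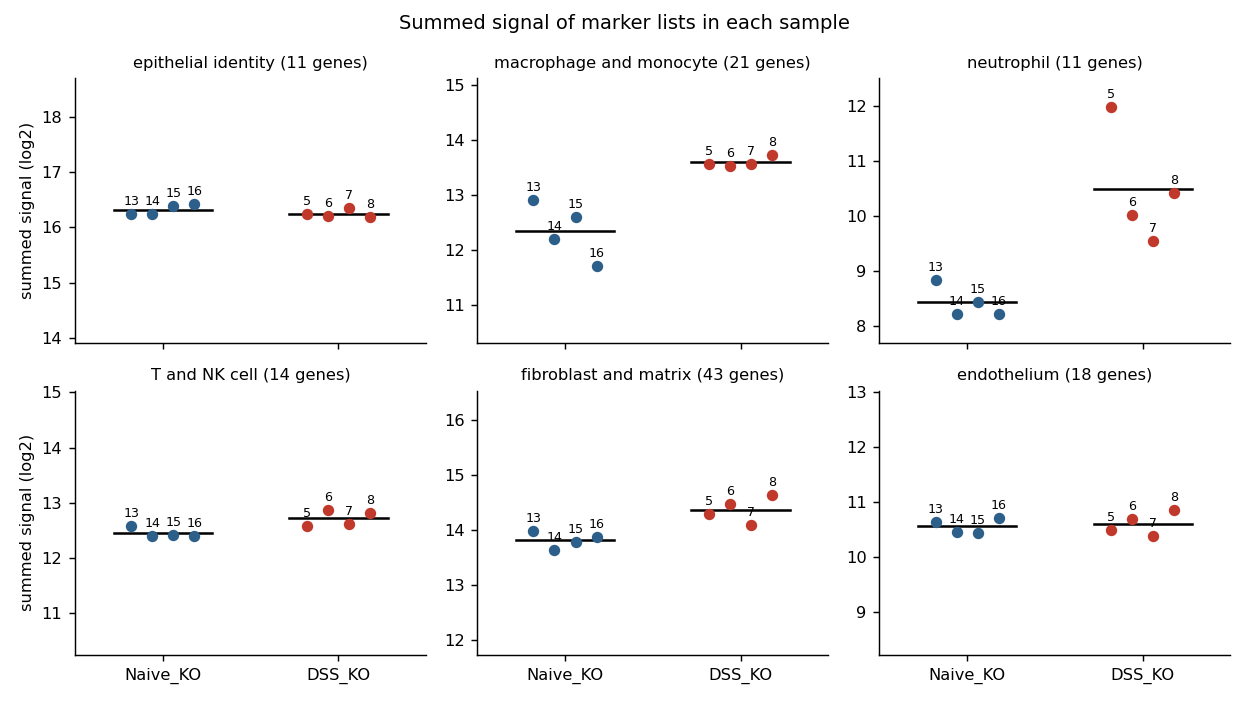
Summed normalized signal (y axis, log2 of the sum over the genes named in each title) of 6 marker lists in Naive_KO and DSS_KO samples; points are samples with their numbers and the bars are group means (n = 4 per group). Epithelial markers lay between 16.19 and 16.42 in all 8 samples, while macrophage markers lay at 13.53 to 13.72 in every DSS_KO sample and at 12.90 or less in every Naive_KO sample.

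The same treatment in WT cells called 382 probes, 294 higher and 88 lower. Both comparisons use separate samples, but their spread was estimated in 1 model of all 16 samples. Of the 377 Mbd2KO probes, 174 were called in both genotypes, which is 46.2% of the Mbd2KO calls and 45.5% of the WT calls, with 142 higher, 32 lower and none in opposite directions. The sign was the same in WT for 372 of the 377. The probes that fell in Mbd2KO cells had a median change of -1.35 there and -0.92 in WT, and those that rose had 1.34 and 1.28. All were chosen on the Mbd2KO values, so these gaps are a description. For the difference between both responses, limma called 0 probes, and 0 passed an adjusted p under 0.05 (lowest 0.132), while 2338 of all probes tested (10.7%) had an unadjusted p under 0.05.

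The genes with the smallest interaction p are given by their values, since none passed. Apol10a, an apolipoprotein L family member, was at least 1.90-fold higher with DSS in Mbd2KO, where no naive array had it well above background. Its mean level was 4.54 in Naive_KO, 5.91 in DSS_KO, 4.63 in Naive_WT and 4.86 in DSS_WT (adjusted p of the difference 0.132), and since most of these levels were near background no size is given for the difference. Fn1, which encodes fibronectin, changed by -0.45 in Mbd2KO and 1.14 in WT, a difference of -1.59 (-2.27 to -0.90, adjusted p 0.170). Adamts2, a collagen-processing protease, changed by 0.31 and 1.38. Dimmer probes of Hmgn2, a nucleosome-binding protein, and Igsf9, an adhesion molecule, differed by 1.35 and -1.43 between genotypes. The brighter Hmgn2 probe changed by 0.23 in Mbd2KO and 0.20 in WT, so its probes disagree. The brighter Igsf9 probe was not called for DSS in Mbd2KO, and was called in 1 of 19 alternative settings. The bright Reg3b probe changed by 1.27 and 4.18 (difference -2.91, -4.35 to -1.48, adjusted p 0.199), with mean levels of 13.14 in Naive_KO, 10.16 in Naive_WT, 14.41 in DSS_KO and 14.34 in DSS_WT. The naive groups lay further apart than the treated groups, which were near the top of the scale.

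Among the genes named above, Aqp8 changed by -2.83 in Mbd2KO and -0.97 in WT (difference -1.86, 95% interval -3.23 to -0.50, adjusted p 0.301). Tgm3 changed by -3.14 and -1.05 (difference -2.09, -3.77 to -0.41, adjusted p 0.350), and the size of its difference, too, rests on DSS_KO values near background. Lrg1 changed by 3.68 and 2.75 (difference 0.93, -0.63 to 2.50) and Ido1 by 3.36 and 4.77 (difference -1.41, -3.21 to 0.39). The list medians of Mbd2KO and WT were 0.927 and 1.763 for Reg lectins and antimicrobials, 0.925 and 0.993 for the interferon-gamma response, 0.876 and 1.408 for MHC class II, 1.009 and 1.17 for chemokines, -0.28 and -0.134 for colonocyte transport, -0.399 and -0.176 for goblet cells and 0.401 and 1.053 for fibroblasts and matrix. In WT, 3 MHC class II genes and 17 fibroblast and matrix genes rose. Differences between these list medians were not tested.

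**Figure D5:**
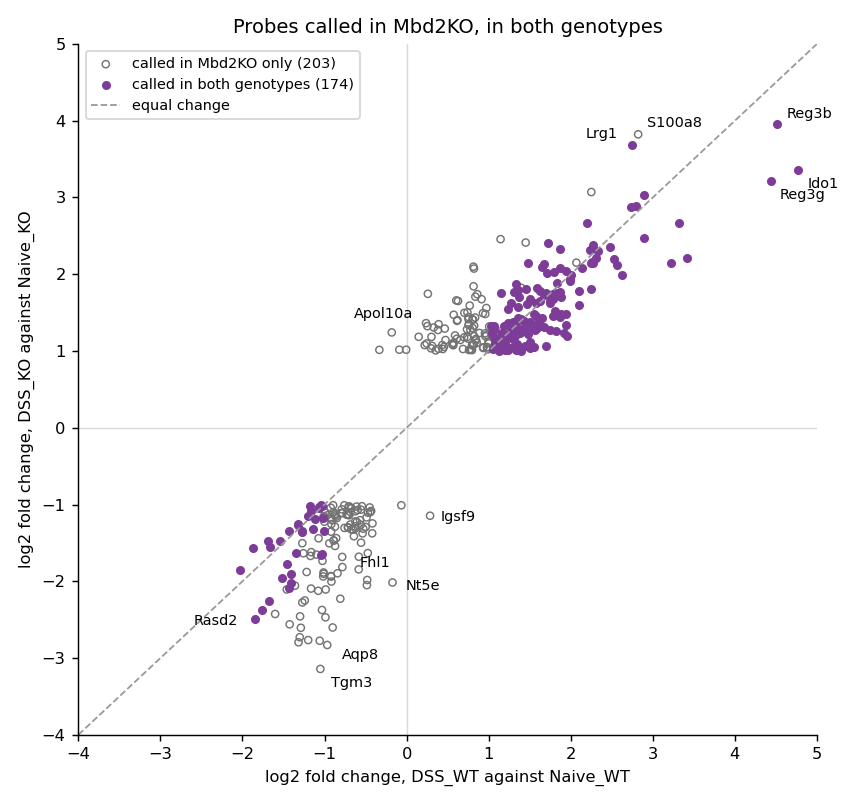
Log2 fold change with DSS in Mbd2KO (y axis) and WT (x axis) of the 377 probes called in Mbd2KO; filled points (174) were called in both genotypes and open points (203) in Mbd2KO alone, and the dashed line marks equal change. In 372 of the 377 the sign is the same in both genotypes, and the probes that fell have a median of -1.35 in Mbd2KO and -0.92 in WT and those that rose 1.34 and 1.28.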

How the data were processed

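The authors deposited bead intensities (mean signal per probe and array, linear scale, no normalization or background subtraction per the file headers) and detection p-values, which the scanner software deposited beside each signal. The submitters' processing notes name lumi and limma. The authors' normalized table was not used here. From 45281 probes and 974 control probes (936 negative), the neqc function of limma (version 3.58.1, R 4.3.3) subtracted background by means of the negative controls, added an offset of 16, quantile-normalized the arrays and took log2 values, which compresses differences of dim probes. A probe was tested if at least 4 of 18 arrays detected it at p under 0.05 (21938 probes, with 23343 removed). Arrays 5 and 5R, and 4 and 4R of DSS_WT, were averaged; the labels do not explain the letter R.

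A single linear model (limma lmFit and eBayes, two-sided) held all 16 samples with 1 mean for each of the 4 groups, with Benjamini-Hochberg adjustment over all tested probes within each contrast. The thresholds, an adjusted p under 0.01 and an absolute log2 fold change of 1, are those of the study's methods. Of the tested probes, 16399 were named by Entrez identifier and 1397 by accession through a RefSeq table (GRCm38.p6), and 4142 kept the name in the file. Probe positions in the file have no stated build and are not printed. A gene stands for its probe with the highest mean signal unless said otherwise. The scripts were tested on simulated data.

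The genes named were Mbd2, the 15 largest rises and 15 largest falls among calls in which the 2 groups do not overlap, the 6 genes with the smallest interaction p among genes called in either genotype, and members of gene lists (the called ones with the largest change, and bright members that were not called). Genes outside this rule include Fhl1, Il11, Ddx3y and Xist, and some others are marked where they occur. The members and the lists were chosen with earlier results of these data known. The number of arrays limits the precision. Alternatives covered background correction, scaling, filter, offset, repeat arrays, moderation, the samples in the model and each sample left out.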

Additional observations from a re-analysis of the deposited data

Results flagged for a closer look

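Each of 157 genes was examined for a sample far from the other 3 of its group. In 13 of 314 groups the gap between the outermost sample and its nearest neighbour, divided by the range of the group, was above Dixon's 95% critical value for 4 samples; chance alone gives about 1 such group in 20. DSS_KO 7 accounts for 7 of the 13.

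In DSS_KO 7, Eno3 was 9.83 (other treated samples 7.36 to 7.73), Cyp2c67 was 8.36 (5.49 to 5.91) and Fhl1, a LIM-domain protein, was 10.68 (9.36 to 9.38). These 3 genes fell with DSS, and this sample was nearer to the naive level. The sialyltransferase St6gal1, which changed by -1.10 and was not called, was 10.94 there (9.99 to 10.09). Also in DSS_KO 7, Mmp10 was 4.85 (7.16 to 7.35), Il1r2 was 6.40 (7.26 to 7.40) and Cxcl1 was 11.01 (11.47 to 11.52), all lower than in the other treated samples. In DSS_KO 5, Pycard was 10.35 (9.57 to 9.63).

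Among naive samples, Reg3g was 11.69 in Naive_KO 13 (others 9.27 to 9.65) and the chemokine Ccl5 was 6.10 there (4.64 to 4.75). Il11, a cytokine of the IL-6 family, was 4.62 in Naive_KO 15 (5.29 to 5.39). It was called higher with DSS in the main setting and in all 19 alternatives. In Naive_KO 16, Nxpe4 was 8.40 (9.59 to 9.81) and Mptx1 was 13.54 (14.47 to 14.61). The cause of these gaps was not tested.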

How the results depend on the processing

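No paired analysis was possible because the groups share no replicate numbers. The chip as a block was not run, since the file headers do not give it. The 235 probes called higher became 72 without background correction, 630 with median scaling, 140 without the filter and 130 with an offset of 50, and ran from 111 (without Naive_KO 14) to 309 with 1 sample left out. The 142 called lower became 47, 91, 89 and 84 under the same settings and 93 with Mbd2KO samples only, and ran from 72 to 208 with 1 sample left out. The 382 WT calls became 85 without background correction, 660 with median scaling and 186 with the offset of 50. The difference between genotypes had 0 calls in the 18 alternatives that could give it, all but Mbd2KO samples only. All 377 calls were compared probe by probe, and 59 probes were called under all 19 alternatives. Changes turned direction with median scaling for Chga (0.241), Krt8 (-0.019), Vil1 (0.196) and Mki67 (0.253), and Mki67 ran from -0.248 to 0.066 with 1 sample left out; none of these genes was called. Over single genes, 2819 values under an alternative kept their direction and side of the threshold, 543 lost the threshold, 69 gained it and 5 turned direction. Why the counts moved was not tested. Probes near background, such as Mbd2, could not be compared.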

Other observations

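Some secreted proteins of the crypt varied more between samples than between groups, and the genes in this paragraph were chosen after their values were seen. Mptx1, a pentraxin, read 14.47, 14.60, 14.61 and 13.54 in Naive_KO 13 to 16 and 7.90, 8.07, 13.97 and 12.80 in DSS_KO 5 to 8, so that the samples 5 and 6 were far below 7 and 8. Its log2 fold change of -3.62 ± 0.98 (SE, n = 4 per group, adjusted p 0.0278 by limma) was the largest fall of any gene, by its brightest probe, and was not called. Ang4, an antimicrobial ribonuclease, read 9.31, 14.11, 13.63 and 9.13 in naive samples and 9.71, 8.41, 12.21 and 8.46 with DSS. The intelectin Itln1 (6.06, 8.94, 7.99 and 6.52 against 6.64, 5.10, 7.65 and 5.36) and the goblet cell protein Clca1 (12.85, 14.71, 14.46 and 12.52 against 11.23, 10.48, 13.79 and 11.85) were also high in Naive_KO 14 and 15 and in DSS_KO 7. Ang4 changed by -1.84 in Mbd2KO and 2.31 in WT, a difference of -4.15 (95% interval -7.58 to -0.72, adjusted p 0.368 by limma), which did not pass.

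Ddx3y, on the Y chromosome, was called higher with DSS in Mbd2KO cells. It read 9.32, 9.02, 8.87 and 8.94 in naive samples and 10.19, 9.84, 9.92 and 10.26 with DSS, a log2 fold change of 1.02 ± 0.19 (adjusted p 0.00365 by limma), and -0.09 in WT. It was called in 10 of 19 alternative settings, and not without DSS_KO 5 or 8 or Naive_KO 14, 15 or 16. The brightest probe of Xist, which is transcribed from the inactive X chromosome, changed by -0.91 (adjusted p 0.0457) and another by -0.97 (adjusted p 0.0205), while the other two changed by 0.16 and 0.20. Both genes were detected on every Mbd2KO array, the labels do not give the sex of the pooled mice, and the part of the sexes in the pools in any result was not tested.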
